A study of Mus musculus with 10 samples.

Results

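Very broad H4K20me1 domains were defined as autosomal H4K20me1 peaks of at least 50000 bases that were listed with a gene. The rule gave 1998 domains out of 44925 H4K20me1 peaks, or 6.25% of the 31964 autosomal peaks listed with a gene. The domains were listed with 1825 genes and covered 155 Mb, which is 25.6% of all bases in autosomal H4K20me1 peaks. The domains were thus chosen by the length of the H4K20me1 signal, and their lengths and H4K20me1 levels are a description. The median length was 68400 bases, with quartiles of 57200 and 87800 bases, and 315 domains reached 100000 bases. The peaks are 1 set for all libraries of the antibody, so a domain has 1 length and not a length for each genotype.

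The data came from CUT&RUN, a method in which a nuclease tethered to an antibody cuts out the DNA around the target for sequencing. Cultured mouse muscle satellite cells (MuSCs) of the genotype Pax7CreERT/Suv4-20h1WT (Ctrl) were compared with cells of the genotype Pax7CreERT/Suv4-20h1KO (sKO), which lack functional Kmt5b, also called Suv4-20h1. Both genotypes carry the tamoxifen-inducible Cre driven by Pax7, so that the deletion is made in Pax7-expressing cells, and both were purified by MACS, grown in culture and spiked with S2 cell DNA. Antibodies to H4K20me1 and to RNA polymerase II phosphorylated at serine 2 (Pol II S2P) were used on 2 libraries of each genotype. Libraries made with IgG (2) are not part of the comparisons. The deposited value is a score, the normalised coverage of a peak in a library, which is not divided by length, so levels are compared here as score per kb.

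H4K20me1 is placed by KMT5A, also known as PR-Set7 or SET8, and is converted to the dimethylated and trimethylated states by KMT5B and KMT5C. The mark is known to rise in late S phase to mitosis, to cover the bodies of transcribed genes and to be abundant on the inactive X chromosome. Serine 2 phosphorylation of the polymerase repeat is a sign of elongation and is known to be highest towards the ends of genes.

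The autosomal H4K20me1 totals were 13533657 and 18103713 in Ctrl against 29655556 and 32238286 in sKO, and the Pol II S2P totals ranged from 3224367 to 4836482. The sKO libraries of H4K20me1 were thus above both Ctrl libraries, and the Pol II S2P totals of the genotypes overlapped. Over the annotated span of Kmt5b (chr19:3767421-3818303, plus strand), 3 H4K20me1 peaks summed to 1332 and 1740 in Ctrl against 1934 and 2196 in sKO. The 2 Pol II S2P peaks there summed to 24 and 62 in Ctrl against 48 and 22 in sKO, which does not check the deletion, because the position of the deleted exons was not taken into account. Pol II S2P peaks lay on 7 of 8 myogenic markers, with summed scores of 14713 and 19206 in Ctrl against 20461 and 14084 in sKO, and Myf5 had none. Most of these sums came from the long gene Ncam1, with 8456 and 12105 in Ctrl against 13420 and 9329 in sKO. Of 5 fibro-adipogenic markers 1 had a peak, with sums of 50 to 82 per library, and of 5 endothelial markers 2 had one, with sums of 133 to 256. Of 5 immune markers 2 had a peak, with sums of 874 to 1368, nearly all from Cd68.

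The sequences that follow are the central 200 bases of Pol II S2P peaks inside domains. Peaks were taken by mean score, from the longest domain and from the 4 domains with the highest Pol II S2P score. A score is not divided by length, so this choice favours long peaks, and the centre of a peak need not be its highest point. All are given on the plus strand of GRCm38.p6, and capitals mark CpG dinucleotides. Where the highest peak of a domain had its centre in an untranslated exon, the next highest was taken, which applied to Slc6a6.
Slco4a1 domain, chr2:180400122-180400321, outside protein-coding genes: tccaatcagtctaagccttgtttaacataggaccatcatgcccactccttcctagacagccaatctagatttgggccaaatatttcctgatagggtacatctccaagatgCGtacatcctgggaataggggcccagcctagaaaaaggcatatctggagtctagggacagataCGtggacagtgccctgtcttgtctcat
Cdon domain, chr9:35512640-35512839, overlapping a coding exon of the neighbouring gene Gm1113: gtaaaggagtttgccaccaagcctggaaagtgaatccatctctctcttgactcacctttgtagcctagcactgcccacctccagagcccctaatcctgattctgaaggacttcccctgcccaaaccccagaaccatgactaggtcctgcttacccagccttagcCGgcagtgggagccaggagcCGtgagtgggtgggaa
Slc6a6 domain, chr6:91712802-91713001, in an intron of Slc6a6: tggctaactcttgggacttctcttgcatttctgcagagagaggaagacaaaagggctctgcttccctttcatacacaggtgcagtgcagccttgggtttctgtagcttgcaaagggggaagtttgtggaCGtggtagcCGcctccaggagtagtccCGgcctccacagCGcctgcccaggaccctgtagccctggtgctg
Pcbp2 domain, chr15:102505142-102505341, overlapping a coding exon of Map3k12: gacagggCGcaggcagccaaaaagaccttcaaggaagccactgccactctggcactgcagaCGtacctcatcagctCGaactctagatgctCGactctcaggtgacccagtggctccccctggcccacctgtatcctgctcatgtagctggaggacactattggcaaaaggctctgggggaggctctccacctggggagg
Myh9 domain, chr15:77757325-77757524, outside protein-coding genes: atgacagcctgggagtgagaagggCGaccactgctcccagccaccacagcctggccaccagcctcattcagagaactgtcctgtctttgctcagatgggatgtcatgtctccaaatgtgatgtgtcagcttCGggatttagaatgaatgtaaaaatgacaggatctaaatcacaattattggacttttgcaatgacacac
The windows held 2 to 4 CpG dinucleotides each. Over all 10268 Pol II S2P peaks inside domains, 9.51% of such windows held 10 or more CpG dinucleotides, against 12.3% of all 50698 autosomal peaks. The E-box CAGCTG, which reads the same on both strands, was present in 14.8% of windows inside domains and in 18.3% of all. The motif TGACTCA, searched on both strands as TGACTCA and TGAGTCA, was present in 7.27% inside and in 11.1% of all.

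On the deposited scale H4K20me1 rose in most of the domains in sKO, but by less than in other peaks. The peaks of all libraries form 1 set chosen by the same signal, so this difference may follow in part from the choice and is a description. The domains also had higher levels in Ctrl, at 28.1 and 37.4 score per kb against 20.3 and 27.2 in the other autosomal peaks. In the limma fit over all autosomal peaks, 1662 of the 1998 domains were called higher in sKO (83.2%), against 90.1% of the 40902 autosomal peaks tested, and none was called lower, against 0.00244% of those peaks. Peaks were called at a log2 fold change beyond 0.5 where the Benjamini-Hochberg p was below 0.1. All 1998 domains passed the limit of a mean score over 50. The median log2 fold change of the domains was 0.81, with quartiles of 0.59 and 1.01, compared to 1.14 over all autosomal peaks, with quartiles of 0.83 and 1.49. Both sKO libraries were above both Ctrl libraries in 1913 domains (95.7%), against 93.9% of all autosomal peaks tested. None had both sKO libraries below both Ctrl libraries, against 0.0269%. Unadjusted p-values under 0.05 were found for 1569 domains, against 87.1% of all peaks. In bulk libraries a change in every cell and a change in the share of cells that carry the mark cannot be told apart.

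Scaling the libraries to equal autosomal totals removed the median rise and left the domains below the other peaks. The median of all autosomal peaks moved from 1.14 to 0.17 on the log2 scale and that of the domains to -0.17. A single factor per library shifts all peaks by nearly the same amount. The gap of 0.34 between the domains and all peaks was therefore bound to stay and is not a second observation. With equal totals 35 domains were called higher (1.75%, against 22.6% of all peaks) and 304 lower (15.2%, against 4.41%). With quantile normalisation the order turned, as the median was 0.06 in the domains and -0.01 over all peaks, with 120 domains called higher (6.01%, against 11.6% of all peaks) and 72 lower (3.6%, against 11.6%). That method gives all libraries the same distribution of scores, and 1851 of the 1998 highest mean scores belonged to domains. On the deposited scale the median rise of the domains stayed when any single library was dropped. Compared to 0.81 with all libraries, it became 0.86 after dropping sKO replicate 1 and 0.76 after dropping sKO replicate 2. Dropping a Ctrl library moved the median further, to 0.60 for replicate 1 and to 1.01 for replicate 2. Such fits take their spread from 1 genotype only, so their number of calls cannot show whether the rise holds.

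In Ctrl the domains held 32.2% and 32.1% of the autosomal H4K20me1 score, whereas they held 27.7% and 27.5% in sKO. The share was lower in both sKO libraries, and the mean difference was -4.56 percentage points (exact permutation test, two-sided, p = 0.333, the smallest p that 2 against 2 libraries allow). The summed score of the domains was 4360458 and 5815951 in Ctrl against 8228023 and 8858372 in sKO, a log2 change of 0.75 (exact permutation test, p = 0.333). For the summed score of the remaining autosomal peaks this change was 1.06. A share is the same whatever factor scales a library.

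The domains became more alike in sKO. In Ctrl replicate 1 the median level was 26.9 score per kb, with 5th and 95th percentiles of 19.1 and 38.4, and in Ctrl replicate 2 it was 35.9, with percentiles of 25 and 51.2. In sKO replicate 1 the median was 52.6, with percentiles of 44.8 and 60, and in sKO replicate 2 it was 56.7, with percentiles of 48 and 65.1. The 95th percentile was 2.01 and 2.05 times the 5th in Ctrl and 1.34 and 1.36 times in sKO, so the spread over domains was narrower in both sKO libraries. The SD of the log2 level over domains was 0.31 in each Ctrl library and 0.13 in each sKO library. The 5976 gene-listed autosomal peaks of 20 to 50 kb showed ratios of 2.36 and 2.45 in Ctrl against 1.42 and 1.43 in sKO, so a narrower range in sKO was not particular to the domains. Peaks and domains were ranges of the same antibody's signal that also chose them, and these values are given as a description.

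**Figure D1:**
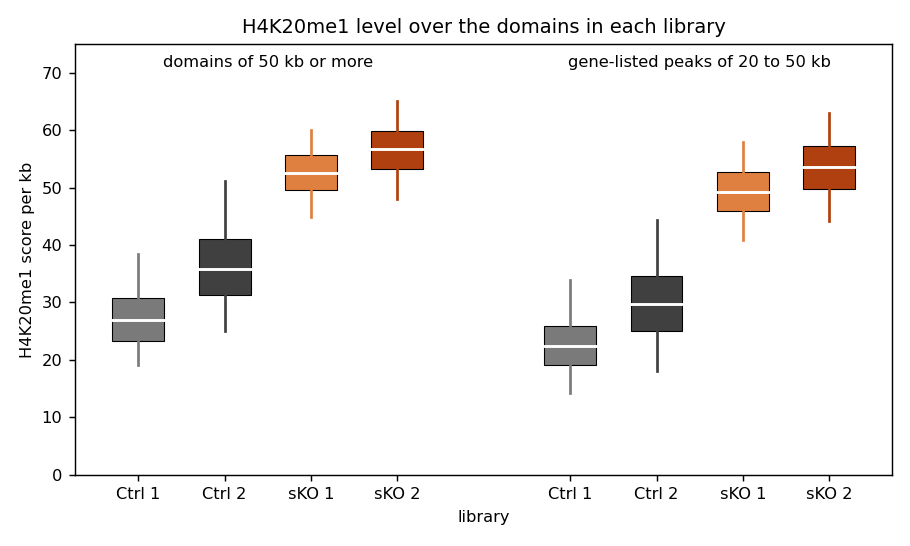
H4K20me1 score per kb (vertical axis) over the 1998 domains (left) and the 5976 gene-listed peaks of 20 to 50 kb (right) in each library. Boxes span the quartiles, white lines are medians and thin lines reach the 5th and 95th percentiles, and the sKO boxes are higher and shorter, with domain medians of 52.6 and 56.7 against 26.9 and 35.9 in Ctrl.

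Domains with the lowest level in Ctrl had the largest change. To keep the ranking apart from the change, domains were put into 4 equal groups by their level in Ctrl replicate 1, and the change was measured from Ctrl replicate 2. From the lowest to the highest group, the median of Ctrl replicate 2 went from 28.1 through 33.5 and 38.1 to 45.7 score per kb. In sKO replicate 1 the medians of the same groups were 52, 52.2, 52.8 and 53.6, and in sKO replicate 2 they were 56.5, 56.1, 56.7 and 57.2. Levels that rose across the groups in Ctrl were thus nearly level across them in sKO. The median log2 change of sKO replicate 1 over Ctrl replicate 2 fell from 0.89 in the lowest group through 0.63 and 0.48 to 0.21 in the highest. With the Ctrl replicates exchanged, the values for sKO replicate 1 were 1.30, 1.05, 0.88 and 0.63. Pol II S2P in Ctrl averaged 2.41 score per kb in the lowest group and 7.38 in the highest, and its part in the difference was not tested.

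**Figure D2:**
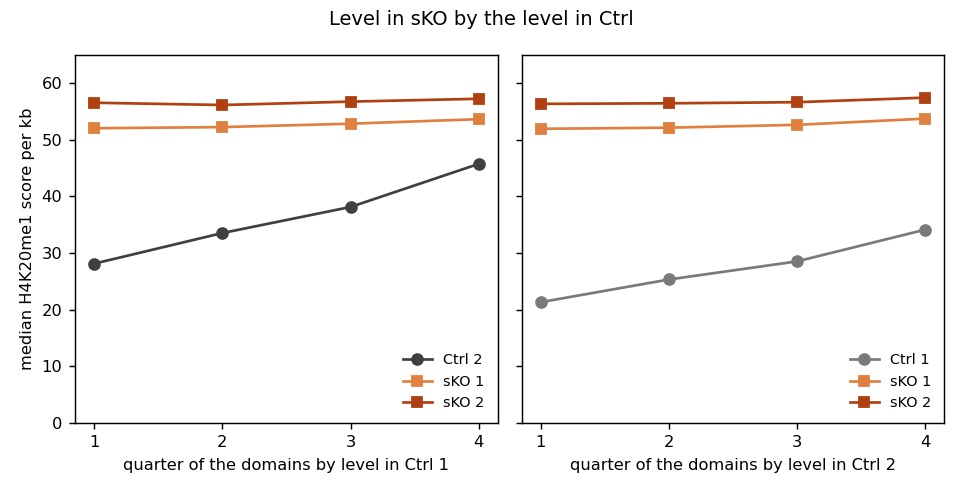
Median H4K20me1 score per kb (vertical axis) in 4 equal groups of domains ranked by their level in Ctrl replicate 1 (left) or Ctrl replicate 2 (right), shown for the other Ctrl library and both sKO libraries. The Ctrl line climbs from 28.1 to 45.7 on the left, while the sKO lines stay between 52 and 53.6 and between 56.1 and 57.2.

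From 5 kb upwards, the change in gene-listed autosomal peaks was smaller the longer the peak. The 6036 peaks under 5000 bases did not continue this order, with a median log2 fold change of 1.22 and Ctrl levels of 17.4 and 26 score per kb. The median limma log2 fold change was 1.25 for peaks of 5 to 10 kb and 0.99 for peaks of 20 to 50 kb. It was 0.85 for the 1218 domains under 75000 bases, 0.78 for the 465 domains of 75 to 100 kb and 0.74 for the 315 domains of 100000 bases or more. The level in Ctrl moved the other way, from 17.4 and 23.3 score per kb in peaks of 5 to 10 kb to 30.1 and 40.5 in the longest domains. In sKO the corresponding levels were 45.4 and 50 in the shorter peaks and 54.5 and 58.7 in the longest domains. At the limit itself, the domains of Pitpnm2, Gtf2ird1 and Cdk11b were 50000 bases long with scores of 1203 to 1889 in Ctrl against 2019 to 2782 in sKO. The peaks of Cul4a, Yeats2 and Map3k2, at 49800 bases, fell just outside with scores of 1086 to 1792 in Ctrl against 2286 to 2737 in sKO.

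**Figure D3:**
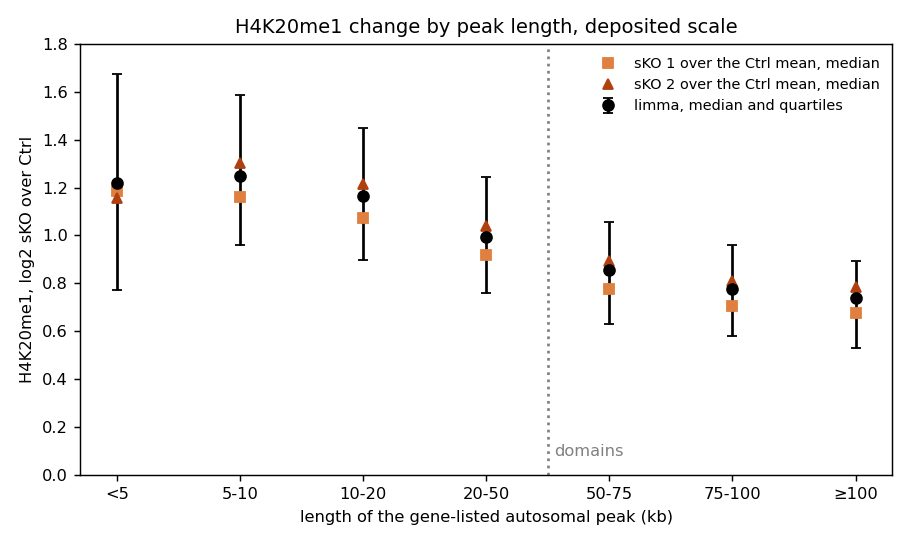
H4K20me1 log2 change of sKO over Ctrl (vertical axis, deposited scale) by length of the gene-listed autosomal peak in kb. Black points with bars are the median and quartiles of the limma log2 fold change, coloured points are the medians of each sKO library over the Ctrl mean, and the medians go from 1.25 at 5 to 10 kb to 0.74 at 100 kb or more.

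Gene content was described with the GENCODE M21 annotation. Of the domains, 1976 were listed with a protein-coding gene and 15 with a long non-coding RNA. Protein-coding genes covered 83.8% of a domain on average, 849 domains overlapped 1 such gene, 650 overlapped 2 and 475 overlapped 3 or more. The largest number was 11, in the domains listed with Ndor1 and Evi5l. The start of a protein-coding gene lay in 1221 domains and in none of the other 777. A listed gene need not be the gene that fills a domain, as 15 domains were listed with Gm20388 and 14 with Fgfr2, whose listed spans of 4.43 and 2.96 Mb contain other genes. Median GC content was 44.9% in the domains and 44.4% in the other gene-listed autosomal peaks.

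Among the 1976 domains listed with a protein-coding gene, 627 (31.7%) held both the start and the end of that gene, 275 (13.9%) the start without the end, and 657 (33.2%) the end without the start. Neither was held by 417 domains (21.1%), in genes with a median length of 194 kb. Ends without starts were thus more frequent than starts without ends. Among gene-listed peaks of 20 to 50 kb the shares were 16.3% for a start alone and 28.3% for an end alone. Domains with a start alone were called higher in 89.5% and had a median log2 fold change of 0.87, and those with an end alone were called in 78.8% with a median of 0.78. Pol II S2P per kb in Ctrl was 1.98 and 2.68 in domains with a start alone and 4.22 and 5.97 in those with an end alone.

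The domains were unevenly placed. Chromosomes 2 and 11 had 142 and 141 domains per 100 Mb, whereas chromosome 10 had 45.1. Protein-coding genes numbered 10.1 and 13.4 per Mb on the first pair and 7.81 per Mb on chromosome 10, and chromosome 7 had 103 domains at 13.9 genes per Mb. With gaps of at most 20000 bases, 437 domains (21.9%) formed 193 runs of 2 or more. The run with the most domains had 6 members at chr4:154002000-154692199, listed with Trp73, Megf6 and 4 times with Prdm16, and the domains covered 99% of its 690 kb. Its summed scores were 20668 and 29686 in Ctrl against 41262 and 44128 in sKO. Prdm16 encodes a zinc finger regulator known for its part in brown fat cell fate.

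The longest domain, at chr2:180302400-180641999, was 339600 bases long and overlapped 7 protein-coding genes. It was listed with Slco4a1, a transporter of organic anions, and also held Gata5, Ntsr1, Mrgbp, Ogfr, Col9a3 and Tcfl5. Its level was 33.8 and 49.1 score per kb in Ctrl against 60.9 and 65.7 in sKO, without overlap (log2 fold change 0.63, SE 0.36, adjusted p = 0.083, limma). Among the next in length were those listed with Maea, D430042O09Rik, Atp9b, Hdlbp, Cacna2d2 and Klhl29, at 256200 to 291600 bases. The genotypes did not overlap in any of them, and the log2 fold changes were 0.40 to 1.07. Maea, a subunit of an E3 ubiquitin ligase, showed 34.1 and 46 score per kb in Ctrl against 50 and 54.6 in sKO and was not called (adjusted p = 0.254). The other 5 were called higher. The Klhl29 domain overlapped no other protein-coding gene. The Hdlbp domain overlapped 9 protein-coding entries of the annotation with Hdlbp included, and Sept2 is entered more than once among them.

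The domains of Qk, Map4k4 and Gnb1 were among the 4 with the smallest log2 fold change, and each lay by 90% to 100% within its listed gene. These are extremes of the tested values and are given as a description. Qk, the RNA-binding protein Quaking, had 50.2 and 66.4 score per kb in Ctrl against 49.8 and 53.7 in sKO (log2 fold change -0.16, SE 0.30). Map4k4, a kinase upstream of JNK, had 46.5 and 62.6 in Ctrl against 49.5 and 50.9 in sKO, and Gnb1, a G protein beta subunit, had 56.7 and 76.2 in Ctrl against 57.3 and 66 in sKO. The genotypes overlapped in all 3, and none was called on the deposited scale. With equal totals all 3 were called lower, with log2 fold changes of -1.14, -1.09 and -1.08. Their Ctrl levels lay above the 95th percentile of the domains, and their sKO levels lay within the range of the other domains. Gnb1, Wac and Ppp2r2a were among the 4 domains with the highest mean level. Wac, an adaptor of histone H2B ubiquitination, had 56.5 and 72.5 in Ctrl against 58.7 and 63.9 in sKO. Ppp2r2a, a regulatory subunit of protein phosphatase 2A, had 58.6 and 74.8 in Ctrl against 67.2 and 69.3 in sKO. All 12 domains with a negative log2 fold change were among those not called.

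The 4 domains with the largest log2 fold change had low levels in Ctrl. They were picked by that change, so the low Ctrl levels and the calls follow in part from the choice and are a description. Zfp324, a zinc finger gene, had 12.6 and 15.9 score per kb in Ctrl against 50.8 and 57.6 in sKO (chr7:12957200-13007199, log2 fold change 1.93, SE 0.27, adjusted p = 7.3e-11). Jag1, a Notch ligand, had 13.9 and 18.5 in Ctrl against 57.8 and 62.2 in sKO (chr2:137071000-137122599, log2 fold change 1.90, SE 0.27). Stard10, a lipid transfer protein, had 12.7 and 16.6 in Ctrl against 53 and 53.6 in sKO. Pdgfrb, a receptor of platelet-derived growth factor, had 14.8 and 16.5 in Ctrl against 52.6 and 57.4 in sKO. All 4 were called higher on the deposited scale and with equal totals, and the sKO levels were near the sKO medians of all domains. The listed gene took 20% of the bases of the Zfp324 domain, 70% at Jag1, 50% at Stard10 and 40% at Pdgfrb. No Pol II S2P peak lay in the Jag1 domain. The lowest mean levels were those of Arhgap26, Icosl, Scnn1a and Gpatch1, with 14.9 to 25.8 in Ctrl against 41.7 to 51.1 in sKO, and all 4 were called higher.

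**Figure D4:**
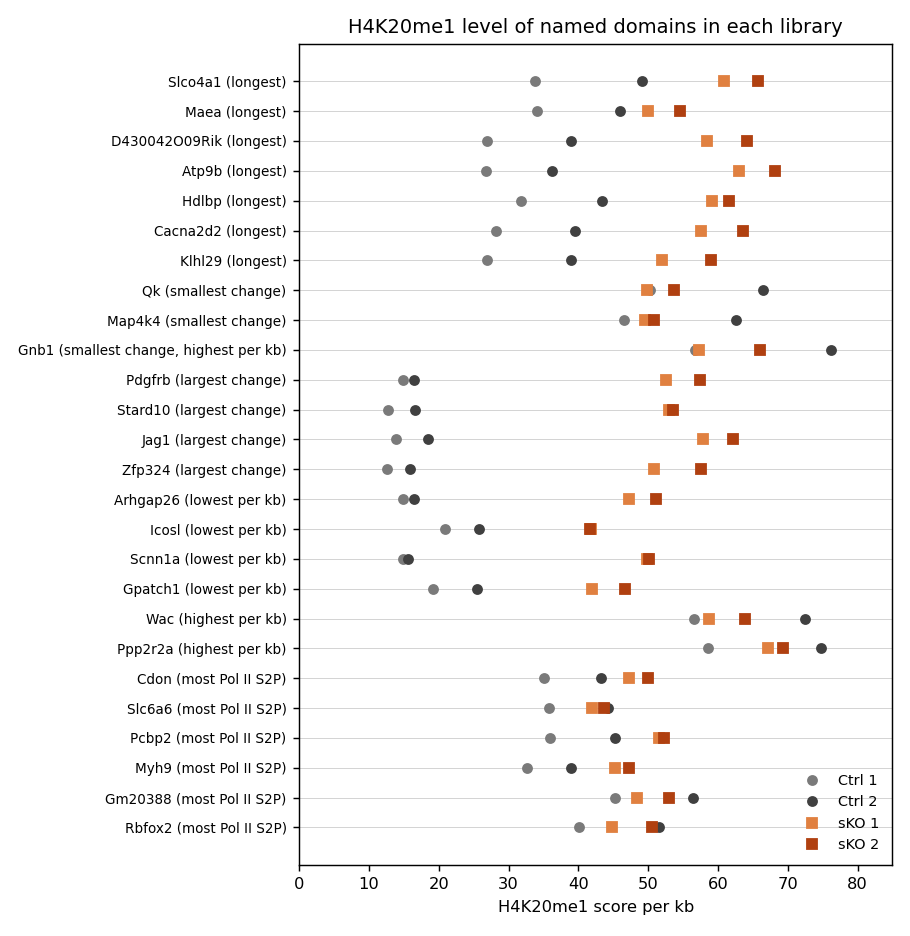
H4K20me1 score per kb (horizontal axis) in each library for named domains among the longest, those with the smallest and largest log2 fold change, those with the lowest and highest mean level, and those with the most Pol II S2P. Circles are Ctrl and squares are sKO, and the sKO squares lie between 41.7 and 69.3 in every row, while the Ctrl circles range from 12.6 to 76.2.

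Pol II S2P did not choose the domains. Of 50698 autosomal Pol II S2P peaks, 10268 (20.3%) had their centre in a domain, and 1503 domains (75.2%) held at least 1, with up to 80 in a domain. Domains without a Pol II S2P peak numbered 495. The Pol II S2P score per kb of domains was 3.42 and 4.77 in Ctrl against 5.67 and 3.92 in sKO, so the genotypes overlapped. By comparison, the score per kb in gene-listed peaks of 20 to 50 kb was 3.4 and 4.62 in Ctrl against 5.46 and 3.8 in sKO. A Pol II S2P peak was found in 47.6% of those shorter peaks and in 86% of domains of 100000 bases or more, and the number of peaks per Mb was 58.4 in the former and 62.8 in the latter.

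The 3824 Pol II S2P peaks inside domains that passed the limit on low scores were tested with all others. Only 1 was called higher in sKO and none lower, against 0.0447% and 0.00447% of the 22353 peaks tested. That call was lost when either Ctrl library or sKO replicate 1 was left out. Unadjusted p-values under 0.05 were found for 171 peaks (4.47%, against 3.46% of all), of which 168 were higher in sKO. Without sKO replicate 2, 10 peaks inside domains were called, and with equal totals 123 were called higher (3.22%, against 2.51%) and 16 lower (0.418%, against 1.19%).

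The median log2 fold change of Pol II S2P was 0.20 inside domains and 0.09 in the 18529 tested peaks outside. The median inside rested on single libraries, at -0.026 without Ctrl replicate 1, 0.42 without Ctrl replicate 2, -0.040 without sKO replicate 1 and 0.46 without sKO replicate 2. Relative to the mean of Ctrl, the median difference between inside and outside was 0.12 in sKO replicate 1 and 0.08 in sKO replicate 2, and -0.05 and 0.04 in the Ctrl replicates. Both sKO values were thus above both Ctrl values, but each Ctrl library is part of its own reference, so the genotypes are not compared on equal terms. The 2 sKO libraries were above the 2 Ctrl libraries in 772 peaks inside domains (20.2%, against 16.7% of all) and were below them in 160 (4.18%, against 6.84%). The share of the autosomal Pol II S2P score inside domains was 16.5% and 17.7% in Ctrl against 18.2% and 17.9% in sKO. The difference was 0.98 percentage points (exact permutation test, two-sided, p = 0.333). The summed score changed by 0.23 on the log2 scale (exact permutation test, p = 0.667) and was -0.065 without sKO replicate 1.

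Among the Pol II S2P peaks with the smallest p that were not called, those higher in sKO lay in the domains of Dhx9, an RNA helicase, and Cul3, a ubiquitin ligase scaffold. The peak at chr1:153442454-153444130 in the Dhx9 domain was listed with Shcbp1l and had scores of 81 and 175 in Ctrl against 498 and 236 in sKO (adjusted p = 0.196). The peak at chr1:80252795-80253511 in the Cul3 domain had 42 and 56 in Ctrl against 209 and 104 in sKO (adjusted p = 0.205). Both sKO libraries were above both Ctrl libraries at each. The lowest p in the other direction belonged to a peak at chr8:122847831-122848753, which spans the annotated start of Cdh15, with 158 and 182 in Ctrl against 77 and 91 in sKO (log2 fold change -1.01, SE 0.40, adjusted p = 1). Peaks listed with Gart and Ago2, at scores of 79 to 156 in Ctrl against 40 to 85 in sKO, followed with unadjusted p of 0.041 and 0.044. None of these 5 was called on the deposited scale, whereas all were called with equal totals.

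Pol II S2P inside domains was divided by place along protein-coding genes. Each peak was placed by its centre, first near a start, then past the end of any gene, then elsewhere in a gene. The share past ends therefore includes peaks that lie inside another gene. Of the score inside domains, 46.2% and 47.2% in Ctrl against 45.9% and 45.8% in sKO lay elsewhere in protein-coding genes. The 5000 bases past an annotated gene end held 28.1% and 28.1% in Ctrl against 29.9% and 29.8% in sKO. The 1000 bases on either side of a start held 20.2% and 19.1% in Ctrl against 17.5% and 18.1% in sKO. The share past ends was higher and the share at starts lower in both sKO libraries, and an exact test of 2 against 2 libraries cannot give a p below 0.333. Outside domains the share past ends was 22.6% and 22.6% in Ctrl against 24.3% and 23.5% in sKO, and the share at starts was 21.7% and 21.5% in Ctrl against 19.8% and 20.3% in sKO. The same order of genotypes was therefore seen in both sets. Among the 1503 domains with a Pol II S2P peak, the highest peak lay elsewhere in a gene in 41.5%, near a start in 30.7% and past a gene end in 20.5%. Among the 935 with 3 or more peaks the shares were 36.4%, 28.3% and 28.1%.

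Domains with more Pol II S2P had more H4K20me1 in Ctrl and a smaller change. Domains with a Pol II S2P peak were put into 4 equal groups by Pol II S2P score per kb in Ctrl, with group medians of 0.514, 1.71, 4.06 and 11.4. The median H4K20me1 level in Ctrl was 25.2 and 34 score per kb in the 495 domains without a peak, 26.1 and 35.5 in the lowest group, and 30.8 and 39.1 in the highest. In sKO the levels were 51.1 and 55.5 without a peak, 53 and 57.4 in the lowest group, and 52.5 and 56 in the highest. The levels without a peak were thus below those of the highest group in every library, by less in the sKO libraries than in the Ctrl libraries. The median log2 fold change was 0.85 without a peak and in the lowest group, followed by 0.86, 0.78 and 0.63 towards the highest. Calls were made for 90.9% of domains without a peak and for 62.2% of the highest group. Median GC content was 45.2% without a peak and 45.4% in the highest group, and median length was 62200 and 67100 bases.

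**Figure D5:**
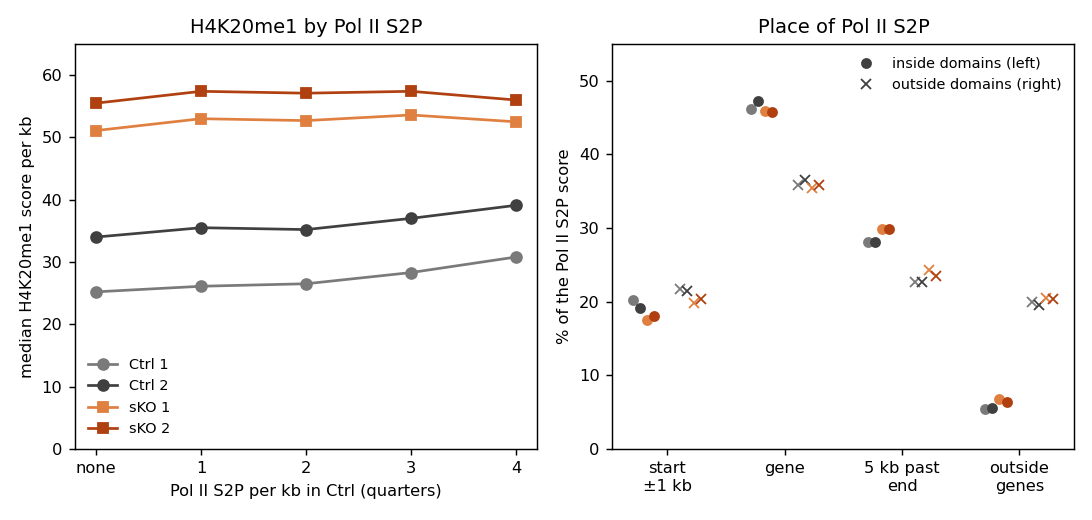
Left, median H4K20me1 score per kb (vertical axis) of domains without a Pol II S2P peak and in 4 groups of rising Pol II S2P score per kb in Ctrl, for each library. Right, percent of the Pol II S2P score (vertical axis) by place, inside domains (circles) and outside (crosses) for each library, where the share within 5 kb past a gene end is 28.1 to 29.9 inside domains and 22.6 to 24.3 outside.

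The 6 domains with the most Pol II S2P were listed with Cdon, Slc6a6, Pcbp2, Myh9, Gm20388 and Rbfox2, and none was called for H4K20me1 on the deposited scale. With equal totals all 6 were called lower, with log2 fold changes of -0.98 to -0.61. Cdon, a cell surface receptor that promotes myogenic differentiation, held 70 Pol II S2P peaks with summed scores of 5711 and 6606 in Ctrl against 9543 and 6855 in sKO. H4K20me1 over its domain (chr9:35422000-35518599) was 35.1 and 43.2 score per kb in Ctrl against 47.3 and 49.9 in sKO, without overlap (log2 fold change 0.32, SE 0.29, adjusted p = 0.286). Its highest Pol II S2P peak, the one whose centre is printed above, was 7899 bases long, began 1138 bases past the end of Cdon and had scores of 1554 and 1913 in Ctrl against 3434 and 2303 in sKO.

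The other domains of this group showed the same placement in part. Slc6a6, the taurine transporter, held 60 Pol II S2P peaks with sums of 5574 and 6577 in Ctrl against 7855 and 5419 in sKO, and its highest peak, of 8128 bases, began at the end of the gene and scored 1466 and 1706 in Ctrl against 2449 and 1708 in sKO. Pcbp2, a poly(C)-binding protein, had its highest peak over 10986 bases that covered its end and part of Map3k12, with 1819 and 2431 in Ctrl against 3963 and 2375 in sKO. Myh9, non-muscle myosin heavy chain IIA, had its highest peak 1266 bases past its end and 421 bases from the start of Apol8, with 671 and 696 in Ctrl against 914 and 547 in sKO. The genotypes overlapped at Pcbp2 and Myh9, whereas both sKO libraries were above both Ctrl libraries at Slc6a6 by a margin of 2. H4K20me1 in these 3 domains was 32.6 to 45.3 score per kb in Ctrl against 42 to 52.3 in sKO, with log2 fold changes of 0.11 to 0.37. Rbfox2, a splicing regulator, had 40.1 and 51.6 in Ctrl against 44.8 and 50.6 in sKO, and its highest peak lay inside the gene.

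The domain listed with Gm20388 (chr8:122847600-123041199) is mostly taken up by Ankrd11, a chromatin regulator, with 157 kb inside. It also holds the 19.4 kb of Cdh15, which encodes M-cadherin of satellite cells. It was 193600 bases long, and its H4K20me1 level was 45.2 and 56.4 score per kb in Ctrl against 48.4 and 53 in sKO, with a log2 fold change of 0.00 (SE 0.33). The sKO libraries lay between the Ctrl libraries. The 54 Pol II S2P peaks summed to 4007 and 5509 in Ctrl against 5488 and 3673 in sKO. The 14 peaks on Cdh15 summed to 1504 and 1880 in Ctrl against 1470 and 1072 in sKO, with both sKO libraries below both Ctrl libraries. Those peaks include the one at the start of Cdh15 given above. The highest peak of the domain began 1710 bases past the end of Cdh15, with 748 and 1217 in Ctrl against 1162 and 797 in sKO.

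The gene lists that follow were drawn up with earlier results of these data known, and their counts are descriptions. Domains were listed with 20 of 34 chromatin regulators (58.8%), 13 of 40 genes of the cytoskeleton and adhesion (32.5%), 13 of 40 genes of growth signalling (32.5%), 5 of 26 satellite cell and myogenic genes (19.2%) and 4 of 29 genes of the extracellular matrix (13.8%). None was listed with any of 20 long neuronal genes or 20 marker genes of other lineages. Among all 20807 autosomal protein-coding genes 8.65% had a domain, and among the 4787 of at least 50000 bases 24.6% had one. By the part of the annotated gene that lies in domains, at least 50% was covered for 16 chromatin genes (48.5%), 10 of the cytoskeleton (25.6%), 9 of growth signalling (22.5%), 5 myogenic genes (19.2%) and 3 of the matrix (10.3%), against 13.7% of all. By this measure Krt5, a keratin gene of the other lineages, was also covered, and Cdh15 joined Heyl, Ncam1, Notch1 and Sdc4 among the myogenic genes.

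Of the 22 domains on chromatin regulators, 13 (59.1%) were called higher, against 83.2% of all domains, with log2 fold changes of 0.01 to 1.09 and a median of 0.57, compared to 0.81 over all domains. Ncor1, a corepressor scaffold of HDAC3, had 30.7 and 37.3 score per kb in Ctrl against 48.4 and 53.9 in sKO (log2 fold change 0.60, SE 0.31, adjusted p = 0.065). Arid1b, a SWI/SNF subunit, had 30.2 and 39.7 in Ctrl against 51.3 and 57.6 in sKO, and Tet3, a 5-methylcytosine dioxygenase, had 29.5 and 41.7 in Ctrl against 55.1 and 62.6 in sKO. Both were called higher, as was Rere, a corepressor, with 31.5 and 41.4 in Ctrl against 50.5 and 54 in sKO (adjusted p = 0.090). In all 4 the genotypes did not overlap. Pol II S2P in the Rere domain was low, with sums of 28 and 50 in Ctrl against 30 and 38 in sKO.

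Of the 6 domains on 5 satellite cell and myogenic genes, 3 (50%) were called higher, against 83.2% of all domains. Their log2 fold changes ranged from -0.01 to 1.34, and the domains of Notch1 and Mef2a are counted but not described. Ncam1, a neural cell adhesion molecule that myoblasts also express, had 2 domains within the gene, with 36.4 and 52.4 score per kb in Ctrl against 42.4 and 44.3 in sKO in the longer (chr9:49667600-49791599) and 31.7 and 43.8 in Ctrl against 41.9 and 44.6 in sKO in the other (chr9:49533600-49639999). Neither was called. Together with the remaining Pol II S2P peaks of the gene, Ncam1 had 186 peaks with sums of 8456 and 12105 in Ctrl against 13420 and 9329 in sKO, which overlap. Heyl, a Notch target, had 20.8 and 24.4 in Ctrl against 53.7 and 60.1 in sKO (log2 fold change 1.34, SE 0.29, adjusted p = 1.5e-05). Sdc4, syndecan-4 of satellite cells, had 24.1 and 28.8 in Ctrl against 52.5 and 57.8 in sKO (log2 fold change 1.06, SE 0.28). Heyl and Sdc4 were called higher, and their genes took 20% and 30% of the bases of their domains.

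On the cytoskeleton and adhesion list 12 of 15 domains (80%) were called higher, against 83.2% of all domains, with log2 fold changes of 0.37 to 1.65 and a median of 0.73. Cd44, the hyaluronan receptor, had 24.9 and 32.1 score per kb in Ctrl against 50.2 and 56.2 in sKO. Macf1, a spectraplakin linking actin and microtubules, had 27.9 and 38.1 in Ctrl against 51.7 and 57.8 in sKO, and Dst, the related dystonin, had 28.4 and 37.3 in Ctrl against 49.3 and 53.3 in sKO. Diaph1, a formin, had 17.8 and 24.3 in Ctrl against 52.6 and 52.9 in sKO, the largest log2 fold change of these 4 at 1.34. All 4 were called. The listed gene took 100% of the bases of the Macf1 and Dst domains, 70% at Cd44 and 40% at Diaph1. The highest Pol II S2P peak of the Cd44 domain began 2076 bases past the end of the gene, with 164 and 253 in Ctrl against 510 and 277 in sKO.

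On the growth signalling list 11 of 13 domains (84.6%) were called higher, against 83.2% of all domains, with a median log2 fold change of 0.94. Igf1r, the receptor of insulin-like growth factor 1, had 19.4 and 26 score per kb in Ctrl against 47.2 and 53.8 in sKO, and Ccnd2, cyclin D2, had 20.5 and 31.2 in Ctrl against 49.5 and 55 in sKO. Lats1, a kinase of the Hippo pathway, had 29.2 and 39.8 in Ctrl against 56.7 and 56.4 in sKO. The listed gene took 100% of the bases of the Igf1r domain, 40% at Ccnd2 and 30% at Lats1. Of the 4 matrix domains, 2 (50%) were called higher, against 83.2% of all domains. Fbn1, fibrillin-1, was called with 22.8 and 26.1 in Ctrl against 52.3 and 61.6 in sKO. Col4a1, a basement membrane collagen, was called with 20 and 26.3 in Ctrl against 54.7 and 57.4 in sKO. Col5a1, a fibrillar collagen, with 40.3 and 50.8 in Ctrl against 49.8 and 53.1 in sKO, and Hspg2, perlecan, with 29.8 and 38.5 in Ctrl against 38.1 and 43.8 in sKO, overlapped between genotypes and were not called. Pol II S2P sums differed between these pairs, at 7 to 196 in the libraries of Fbn1 and Col4a1 and 732 to 2592 in those of Col5a1 and Hspg2.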

How the data were processed

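CUT&RUN libraries of MuSCs for H4K20me1 (4) and Pol II S2P (4) were analysed, 2 per genotype, which the study describes as biological replicates. The labels do not tie libraries to animals, so p-values measure the spread between these libraries. Per the labels and the study's methods, the authors trimmed reads with Trimmomatic 0.39, aligned them with STAR 2.7.3a to mm10 (GRCm38), removed duplicates with Picard 2.21.7 and normalised coverage by spike-in. The deposited score is a whole number per union peak and library, and the deposited tables give the fraction of a peak overlapping its listed gene. The spike-in counts and the depth in reads were not used, so the scale between libraries was not checked. Peaks with a mean score over 50 on autosomes were tested in limma 3.58.1 (R 4.3.3) on log2(score + 1) with a mean-variance trend and Benjamini-Hochberg adjustment over all peaks of the antibody. On simulated scores with the means of the real H4K20me1 peaks, the fit called 83 of 98 peaks changed by 1 on the log2 scale. It called 99 of 100 changed by 2 and 8 of 40667 unchanged peaks. For Pol II S2P these counts were 56 of 87, 80 of 83 and 13 of 22214. Simulated scores were independent, with a variance of 4 times the mean and no shift between libraries. The counts therefore do not give the power or error rate in the real libraries, where the median SE of the domains was 0.28. A Pol II S2P peak was counted in the domain that held its centre. Positions are as deposited. Gene names came from GENCODE M21, which held 1996 of the 1998 listed identifiers, and sequences from the RefSeq assembly GRCm38.p6.

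Domains, gene lists and named genes were chosen with earlier results of these data known. The rule named the 8 longest domains, the 4 with the largest and the 4 with the smallest log2 fold change, the 4 with the highest and the 4 with the lowest mean level, the 6 with the most Pol II S2P, up to 4 per gene list by length, the 3 on each side of the length limit, and the 3 Pol II S2P peaks with the smallest p in each direction. Some items that the rule chose are not reported here. Cdh15 and Prdm16 were named after their values were seen, as were the places of Pol II S2P along genes.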

Additional observations from a re-analysis of the deposited data

Results flagged for a closer look

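H4K20me1 peaks of at least 50000 bases that the definition left out also carried signal. On the X chromosome 236 such peaks summed to 554935 and 751146 in Ctrl against 838254 and 923249 in sKO, a log2 change of 0.43, and both sKO libraries were above both Ctrl libraries in 203 of them (86%, against 93.9% of all autosomal peaks tested). Their level was 29.8 and 40.4 score per kb in Ctrl against 45 and 49.6 in sKO. On the autosomes 9 peaks of this length were listed with no gene, at 22.6 and 31.2 score per kb in Ctrl against 47.4 and 52.1 in sKO, a log2 change of summed scores of 0.89. Both sKO libraries were above both Ctrl libraries in all 9. The difference between these sets and the domains was not tested.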

How the results depend on the processing

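Other pseudocounts, filters and variance models gave 1590 to 1668 domains called higher, against 1662, and length limits of 40000, 75000 and 100000 bases gave 2528, 627 and 240. None was called lower under these. With equal autosomal totals 35 domains were called higher and 304 lower, and with quantile normalisation 120 and 72. Without 1 library the number called higher ranged from 92 to 1888. With a replicate block, which pairs libraries by replicate number, 1635 domains were called higher, and the block lowered the Pol II S2P calls inside domains from 1 to 0. The numbers were not taken as pairing the libraries, since the difference between replicates correlated across genotypes over peaks at 0.03 for H4K20me1 and -0.04 for Pol II S2P. For Pol II S2P, 0 peaks inside domains were called higher without a filter, with a mean score over 200 or with a length limit of 100000 bases, 4 without the trend, 2 at 40000 bases, 1 at 75000 bases, 123 (16 lower) with equal totals and 112 (9 lower) with quantile normalisation, and 0 to 10 without 1 library. The summed Pol II S2P change inside domains was -0.065 to 0.49 without 1 library. The shares of H4K20me1 and Pol II S2P kept their sign under every alternative run, with -5.17 to -1.69 and 0.22 to 1.58 percentage points.

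Of the 48 named domains, 27 turned negative with equal totals, at -0.35 in Slco4a1, -0.58 in Maea, -0.064 in D430042O09Rik, -0.28 in Hdlbp, -0.13 in Cacna2d2, -0.21 in Klhl29, -0.13 in Icosl, -0.94 in Ppp2r2a, -0.66 in Cdon, -0.88 in Slc6a6, -0.62 in Pcbp2, -0.61 in Myh9, -0.98 in Gm20388, -0.91 in Rbfox2, -0.77 in the shorter Ncam1 domain, -0.072 in Cd44, -0.24 in Macf1, -0.33 in Dst, -0.80 in Col5a1, -0.71 in Hspg2, -0.39 in Ncor1, -0.33 in Arid1b, -0.24 in Tet3, -0.45 in Rere, -0.25 in Lats1, -0.29 in Pitpnm2 and -0.65 in Gtf2ird1. Leaving out 1 library turned the sign in 10 named domains, whose values ranged from -0.36 to 0.043 in Qk, -0.32 to 0.11 in Map4k4, -0.31 to 0.12 in Gnb1, -0.24 to 0.12 in Wac, -0.13 to 0.22 in Ppp2r2a, -0.047 to 0.26 in Slc6a6, -0.16 to 0.16 in Gm20388, -0.11 to 0.25 in Rbfox2, -0.27 to 0.25 in the longer Ncam1 domain and -0.020 to 0.45 in the shorter. Calls of named domains that kept their direction were lost for 5 with the replicate block, 7 without Ctrl replicate 1, 20 without sKO replicate 1, 25 without sKO replicate 2 and 10 with equal totals. With equal totals the higher call held for 6, namely Zfp324, Jag1, Stard10, Pdgfrb, Arhgap26 and Scnn1a, it was lost at a positive value for Atp9b, Gpatch1, Heyl, Sdc4, Diaph1, Fbn1, Col4a1, Ccnd2, Igf1r and Cdk11b, and Qk, Map4k4, Gnb1, Wac and the longer Ncam1 domain, negative on both scales, were called lower. The cause of these changes was not tested. With 2 libraries per group and no spike-in counts, the size of the rise rests on the deposited scale.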
